A study of Mus musculus with 5 samples.

Results

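Apoe and 9 other genes used to mark resident macrophages were examined in 5 samples of mouse bone marrow cells. The 10 genes were Apoe, C1qa, C1qb, C1qc, Adgre1, Cd68, Msr1, Mrc1, Spp1 and Gpnmb, and a probe set counted as a member when the platform annotation gave it 1 of these symbols. By that rule 8 of the 10 genes had a probe set, 13 probe sets in all, among 8251 named genes and 12422 probe sets. Spp1 and Gpnmb were not analysed here. Apoe was chosen by its measured signals, which differed widely between the samples, so its spread is a description and carries no test. The question was whether the other macrophage genes followed it.

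Each sample was hybridised to 1 single-colour array. The labels describe every sample alike, as progenitors of dendritic cells taken from bone marrow and carrying both FLT3 and CD11b, and number them 1 to 5. They name no strain, age, sex, treatment, pooling or date, and do not say whether the samples came from separate animals. The samples thus formed 1 group, no conditions could be compared, and the spread between them may be technical, biological or both.

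Resident macrophages are long-lived phagocytes of tissues; in bone marrow they clear dying cells and the nuclei that maturing red cells expel, and they recycle iron. Apolipoprotein E, the product of Apoe, is secreted by macrophages and carries cholesterol and other lipids to receptors on other cells. C1qa, C1qb and C1qc encode the A, B and C chains that assemble into C1q, the recognition unit of the classical complement pathway, and macrophages are a main source of it. Adgre1 encodes F4/80, Cd68 a glycoprotein of late endosomes and lysosomes, Msr1 the class A scavenger receptor and Mrc1 the mannose receptor.

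Signals are array intensities after each array was scaled to a common median of 103.4, which also served as the limit above which a gene was counted. The limit is a rank within an array, not a detection call. Values under 30.0, the 25th percentile, were raised to that floor for log2 values, while the order of samples was read from unfloored values. Where an order rests on values under the floor, this is said. Errors are SDs over n = 5 samples, and with 5 arrays the precision is limited. Because these are bulk samples, fewer cells of a type and less RNA per cell cannot be told apart.

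The deposited values of sample 1 were on a higher scale than the rest, with a mean of 999.8 after trimming 2% at each end against 199.96 in each of the other 4, and scaling to the common median removed this offset. The gate genes Flt3 and Itgam, which encodes CD11b, had signal above the limit in 5 of 5 samples. Of a list of 18 macrophage identity genes, 15 were measured and 11 lay above the limit in all samples, against 44.5% of all named genes. The summed signal of the 15 genes ran from 8173 in sample 3 to 17495 in sample 2, and from 6167 to 10305 in the same samples without Mpeg1, a bright gene of phagocytes that varied widely. Of the 15, only 1 was above the limit in 0 samples: Marco, a scavenger receptor of tissue macrophages, which was under the floor in all of them. Siglec1, the sialoadhesin gene of marrow macrophages, came from a list of iron and erythroblastic island genes. Of the 7 measured there, 3 were above the limit in all samples and 2, with Siglec1 among them, in 0.

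Promoters of 4 members are shown because they let the gene at the centre of the question, Apoe, be set beside 2 of the C1q genes and Cd68. Each run is the 250 bases before the most upstream start listed in RefSeq for the build GRCm38.p6, written 5′ to 3′ on the gene's own strand. Capitals mark matches to GAGGAA, the core bound by the myeloid factor PU.1, or to TGAGTCA, the site of AP-1 factors, on either strand.
Apoe (chr7:19699189-19699438, minus strand): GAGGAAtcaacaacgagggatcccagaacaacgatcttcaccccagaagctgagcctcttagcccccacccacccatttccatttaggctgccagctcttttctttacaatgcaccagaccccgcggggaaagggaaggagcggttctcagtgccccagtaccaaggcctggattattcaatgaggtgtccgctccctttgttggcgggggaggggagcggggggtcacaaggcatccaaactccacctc
C1qb (chr4:136886201-136886450, minus strand): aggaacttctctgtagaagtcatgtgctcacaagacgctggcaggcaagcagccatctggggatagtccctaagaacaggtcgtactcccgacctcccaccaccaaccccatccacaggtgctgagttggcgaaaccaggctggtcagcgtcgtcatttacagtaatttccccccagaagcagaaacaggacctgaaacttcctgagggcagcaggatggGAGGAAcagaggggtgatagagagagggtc
C1qc (chr4:136892915-136893164, minus strand): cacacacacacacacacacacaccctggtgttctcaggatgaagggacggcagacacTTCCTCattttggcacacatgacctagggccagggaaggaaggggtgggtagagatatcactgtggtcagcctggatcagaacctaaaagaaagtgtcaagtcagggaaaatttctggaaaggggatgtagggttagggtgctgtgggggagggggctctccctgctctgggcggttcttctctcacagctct
Cd68 (chr11:69666171-69666420, minus strand): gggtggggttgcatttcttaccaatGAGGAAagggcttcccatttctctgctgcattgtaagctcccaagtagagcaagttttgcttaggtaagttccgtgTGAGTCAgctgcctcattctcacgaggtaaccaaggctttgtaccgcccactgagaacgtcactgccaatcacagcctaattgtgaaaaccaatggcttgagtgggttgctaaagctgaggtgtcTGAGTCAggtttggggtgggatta

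RefSeq promoters were matched for 7 of the 10 genes, all but C1qa, Adgre1 and Msr1. GAGGAA or its reverse complement TTCCTC was found in 6 of the 7, and in 23.1% of 27025 promoters of the same length. Apoe held 1 match, at the far end of the window from 250 to 245 bases before the start, C1qb 1 from 30 to 25 bases before it and C1qc 1 on the opposite strand. Mrc1 held 3 matches. TGAGTCA was found in Cd68, with 2 matches, and in 4.43% of all promoters. The Maf half-site TGCTGAC was found in 0 of the 7 and in 3.72% of all; the 3 motifs did not overlap. These matches are letters in a window and say nothing of binding.

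Apoe had signals of 1158, 1109, 83.4, 16.8 and 80.7 in samples 1 to 5. Samples 1 and 2 lay far above the limit, and samples 3, 4 and 5 below it, sample 4 also below the floor. The mean was 489.6 ± 589, and the highest sample stood at least 38.6-fold above the floor. The SD of its log2 signal was 2.41, which ranked 1 of 8251 named genes, the median being 0.52. This value is the one for which the gene was chosen. A further Apoe probe set did not show the pattern: its signals of 29.7, 2.99, 12.0, 16.5 and 4.07 were all under the floor.

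**Figure D1:**
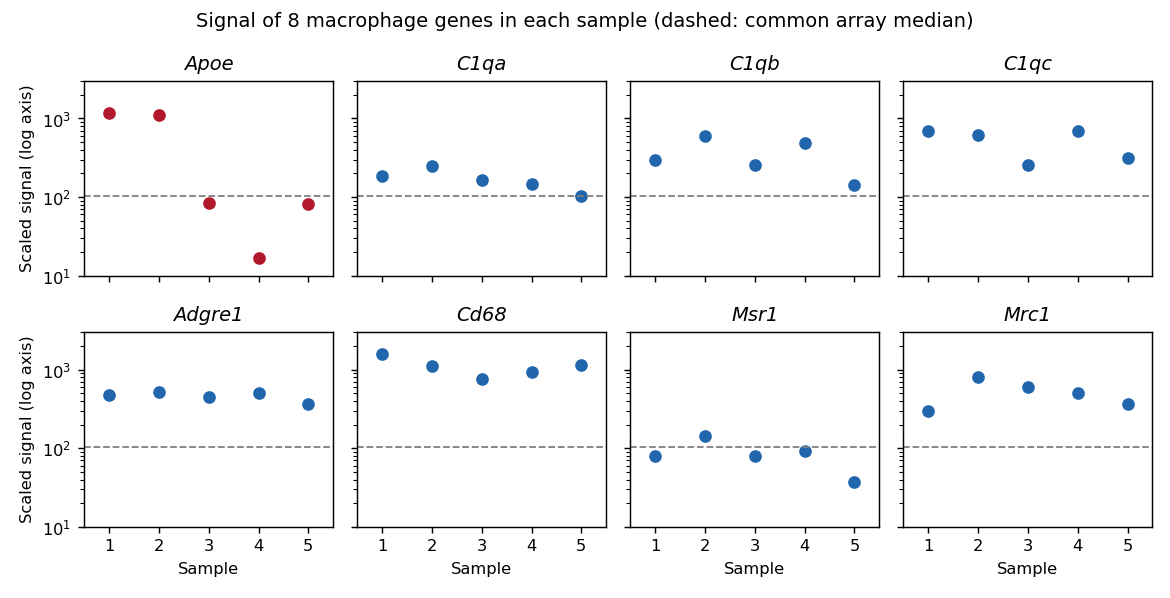
Scaled signal (log axis) of the 8 measured macrophage genes in samples 1 to 5, 1 point per array, with the common median of 103.4 dashed. Apoe lies at 1158 and 1109 in samples 1 and 2 and below the median in the other 3, while 6 of the other 7 genes lie above it in every sample.

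The C1q chain genes differed between samples too, but not all in the way of Apoe. C1qc had 694, 612, 256, 688 and 315 in samples 1 to 5 (513 ± 211), so sample 4, the lowest for Apoe, lay between samples 1 and 2. C1qb had 293, 601, 255, 492 and 144 (357 ± 185), with samples 2 and 4 highest and sample 5 lowest. C1qa had 185, 246, 163, 148 and 103.48 (169 ± 52.4), with samples 1 and 2 highest, and in sample 5 it barely exceeded the limit of 103.41. From lowest to highest sample these genes spanned 2.71-fold for C1qc, 4.18-fold for C1qb and 2.38-fold for C1qa.

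C1qb, C1qc and C1qa are consecutive protein-coding genes in RefSeq, and their products are needed together, but their signals did not keep a fixed ratio on the arrays. The log2 difference of C1qa from its own mean minus that of C1qb ranged over 1.26 log2 units across samples, from -0.77 in sample 4 to 0.49 in sample 5. The same range was 1.56 for C1qa against C1qc and 1.24 for C1qb against C1qc. A further C1qb probe set ordered the samples differently, with 149.6, 80.4, 114, 84.6 and 97.4 in samples 1 to 5. It was lowest in sample 2, where the probe set used for C1qb was highest.

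The surface receptors differed less between samples than Apoe, as did every other named gene, since Apoe ranked 1 of 8251 by SD. Beside the median SD of 0.52 for all named genes, Msr1 had 0.71, Mrc1 0.55 and Adgre1 0.20. Adgre1 had 478, 522, 454, 506 and 367 (465 ± 60.9), a span of 1.42-fold, with sample 5 below the rest. Its SD of 0.20 on the log2 scale ranked 7485 of 8251 genes. Without sample 5 this SD was 0.09.

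Mrc1, whose product binds mannose-bearing glycoproteins, had 301, 797, 594, 498 and 371 (512 ± 195). It was lowest in sample 1, where Apoe was highest, and highest in sample 2. Msr1, whose product takes up modified lipoproteins, had 79.6, 143, 79.2, 91.0 and 36.7 (86.0 ± 38.2) and was above the limit in sample 2 alone. A second Msr1 probe set gave 84.9, 19.9, 135, 132 and 22.8, with samples 2 and 5 under the floor. The probe sets thus disagreed on sample 2, and Msr1 has no settled order here. The SD of the first Msr1 probe set was 0.71 on the log2 scale and 0.40 without sample 5.

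Cd68, the lysosomal glycoprotein gene, had 1574, 1130.4, 767, 923 and 1138 in samples 1 to 5 (1107 ± 304). Sample 1 was highest and sample 3 lowest, a span of 2.05-fold, and samples 3 to 5, where Apoe was below the limit, had Cd68 signals well above it. The further probe sets of Cd68 and Adgre1 were above the limit in 0 samples.

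Of the 8 genes, 6 were above the limit in all 5 samples, the exceptions being Apoe with 2 samples and Msr1 with 1, against 44.5% of all named genes. Of the other 7 genes, 0 had an SD over 1 on the log2 scale, against 8.87% of all named genes and 6.76% of those with a mean above the common median, and the highest among them was C1qb at 0.82. Their median SD was 0.55, beside 0.52 for all named genes. The mean log2 signal of 7 of the 8 genes, all but Msr1, exceeded the log2 of the common median.

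**Figure D2:**
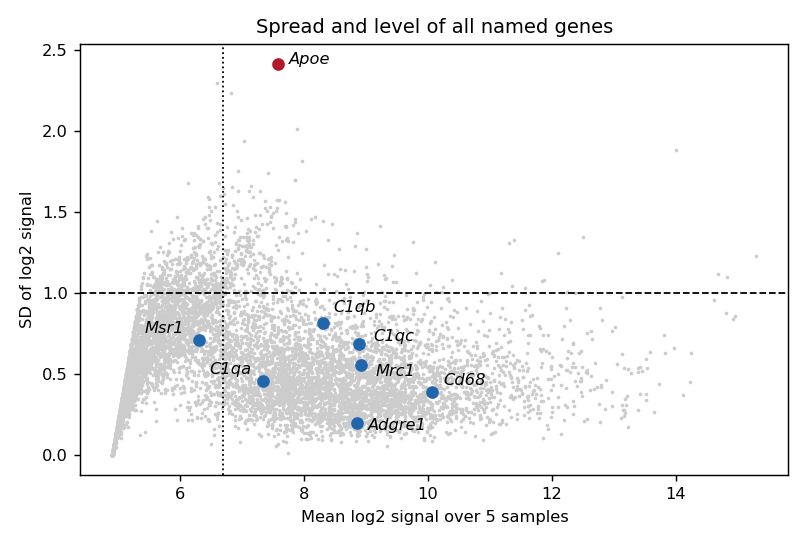
SD of log2 signal over 5 samples against mean log2 signal for all 8251 named genes (grey) with the 8 macrophage genes marked. The dashed line is an SD of 1 and the dotted line the common median. Apoe stands at 2.41, and the other 7 lie between 0.20 and 0.82.

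To ask whether the other genes followed Apoe, the 10 possible pairs of samples were compared, and a gene was said to follow when at least 8 of the 10 stood in the same order as for Apoe. A correlation was not used, since 5 samples are too few. C1qa followed, with 8 of 10 pairs, and was the 1 gene of 7 to do so; 10.2% of the other named genes also followed, and 7.70% of those with a mean above the common median. Cd68 had 7 pairs, C1qb, C1qc, Adgre1 and Msr1 6 each, and Mrc1 5. The median was 6 pairs for the 7 genes and 5 for all named genes. A share of 1 in 7 is close to the background.

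The count depended on which samples were included. Without sample 4, where Apoe was lowest, 5 of 7 genes followed in at least 80% of the remaining 6 pairs, namely C1qa, C1qb, C1qc, Adgre1 and Msr1, against 18.4% of named genes. Without sample 1 the count was 2 (C1qa and Mrc1, against 11.6%), without sample 5 it was 2 (C1qa and Cd68, against 16.8%), without sample 3 it was 1 (Cd68, against 15.8%), and without sample 2 it was 1 (C1qa, against 13.8%). C1qa no longer followed without sample 3. With quantile normalization the count was 2, C1qa and Adgre1.

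**Figure D3:**
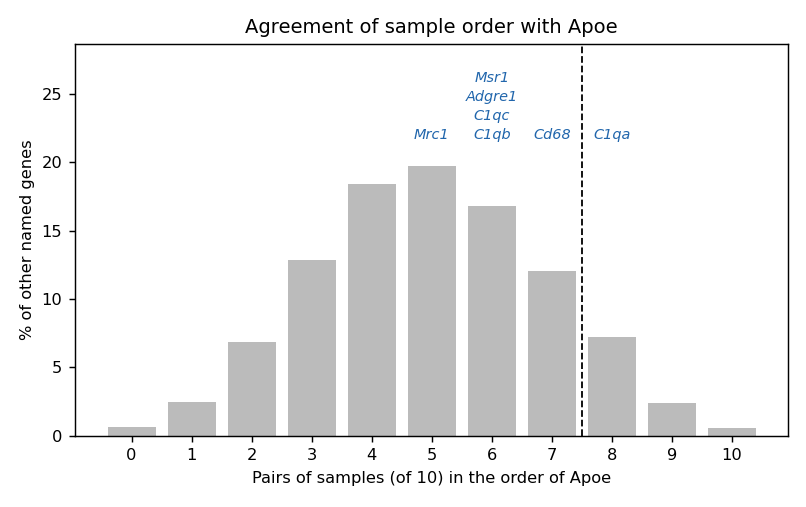
Share of the other 8250 named genes (bars, percent) by the number of sample pairs, of 10, that stand in the same order as for Apoe. Names mark the 7 other macrophage genes, and those right of the dashed line follow Apoe by the rule used; C1qa does with 8 pairs, and the others have 5 to 7.

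The macrophage genes other than Apoe resembled each other in part. C1qb, Adgre1 and Msr1 placed the 5 samples in an identical order (samples 2, 4, 1, 3 and 5 from high to low), with 10 of 10 pairs in common. C1qa shared 8 pairs with each of these 3. Of the other named genes, 10.8% shared at least 8 pairs with C1qa, 15.9% with the order of C1qb, Adgre1 and Msr1, 15.1% with C1qc, 16.1% with Cd68 and 14.4% with Mrc1. Among all 28 pairings of the 8 genes, 7 shared at least 8 pairs of samples. All of these but Apoe with C1qa lay among C1qa, C1qb, Adgre1 and Msr1, so they largely repeat the same order. The lowest value was 2, for Cd68 and Mrc1. The further probe sets of Msr1 and C1qb gave other orders, and the order of Adgre1 rests on a span of 1.42-fold.

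**Figure D4:**
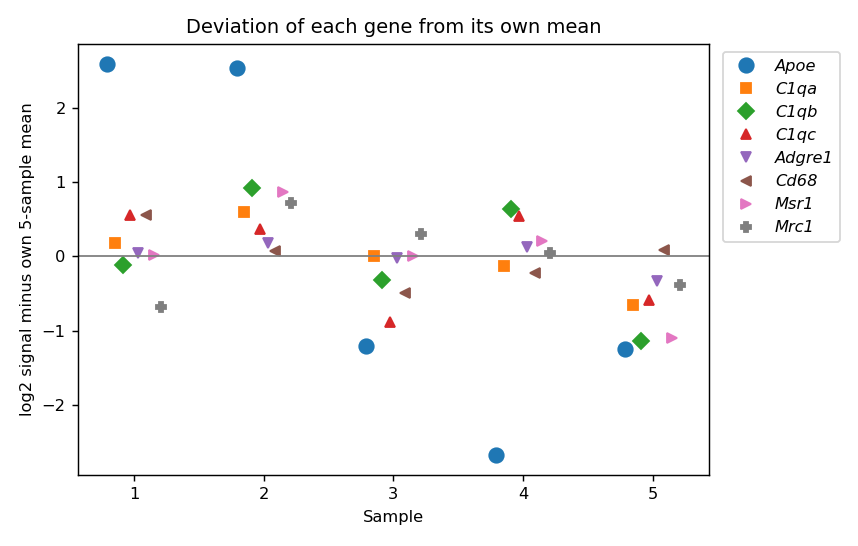
Log2 signal minus the gene's own mean over the 5 samples, for each of the 8 macrophage genes by sample; symbols are offset sideways. Apoe runs from 2.59 in sample 1 to -2.67 in sample 4, and in sample 4 C1qb and C1qc lie at 0.64 and 0.54.

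The genes most like Apoe in both order and size were sought by the root mean square distance between log2 deviations over the 5 samples, among 4556 other genes with a mean above the common median. A gene that did not vary at all would lie at 2.16 from Apoe. None of the 10 nearest genes was a macrophage gene of the set (0 of 10). The spreads alone fixed this count. Apoe was chosen for its spread, and the other members, with SDs of at most 0.82, varied too little to come so near in any order. The count thus says nothing of whether they followed Apoe. Xist, the RNA that silences 1 X chromosome in female cells, was nearest at 1.17, with signals of 283, 1051, 14.4, 68.7 and 28.6. Samples 1 and 2 were the highest for Xist, as for Apoe, and samples 3, 4 and 5 lay below the limit, samples 3 and 5 also under the floor. Xist matched Apoe in 6 of 10 pairs and so did not follow it by the rule used.

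Trib3, a stress-induced pseudokinase, came next at 1.21 with 267, 491, 114, 73.6 and 88.3, and Fbln1, which encodes the matrix protein fibulin, at 1.34 with 386, 247, 132, 60.5 and 138. The remaining 7 lay between 1.38 and 1.42 and were Oxt, Slc1a5, Tyk2, U2af1l4, Tcea2, Cand1 and Sla. C1qa lay at 1.89, rank 311, Cd68 at 1.93, rank 405, and C1qc at 1.99, rank 620. C1qb, Adgre1 and Mrc1 lay at 2.08, 2.10 and 2.21, near the distance of a gene with no deviation. Msr1, whose mean was not above the common median, lay at 1.96. The median of the 4556 genes was 2.24, farther than the 2.16 of a gene that did not vary. Each of these members lay nearer to Apoe than the median, but a flat gene would too. Lying nearer than the median thus shows no likeness to Apoe, and Mrc1 lay farther than a flat gene.

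Other measures also differed across the samples. Eif2s3y, a gene of the Y chromosome looked up after the Xist values were seen, had signals of 19.9, 7.68, 374, 367 and 305, so it was below the floor in samples 1 and 2 and above the limit in the others. The Y-linked genes Uty and Kdm5d, looked up with it, were above the limit in 0 samples. Xist, unlike Eif2s3y, was above the limit in samples 1 and 2 alone. The labels give no sex, and whether it differed between the samples was not tested. The ratio of 3′ to 5′ signal of the Gapdh control, a measure of how complete the labelled RNA was, was 0.896, 1.06, 4.52, 3.42 and 2.01, lowest in samples 1 and 2. That of the transferrin receptor control was 3.14, 3.77, 16.7, 8.63 and 5.16, and that of the actin control 1.08, 3.003, 4.15, 5.20 and 2.55. Each of the 3 ratios stood in the opposite order to Apoe in 8 of 10 pairs, and Eif2s3y stood in the order of Apoe in 3. Of the other 8250 named genes, 822 had at most 2 pairs in the order of Apoe. The 3 ratios come from the same 5 arrays and are not independent. The part of these measures in the Apoe pattern was not tested.

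**Figure D5:**
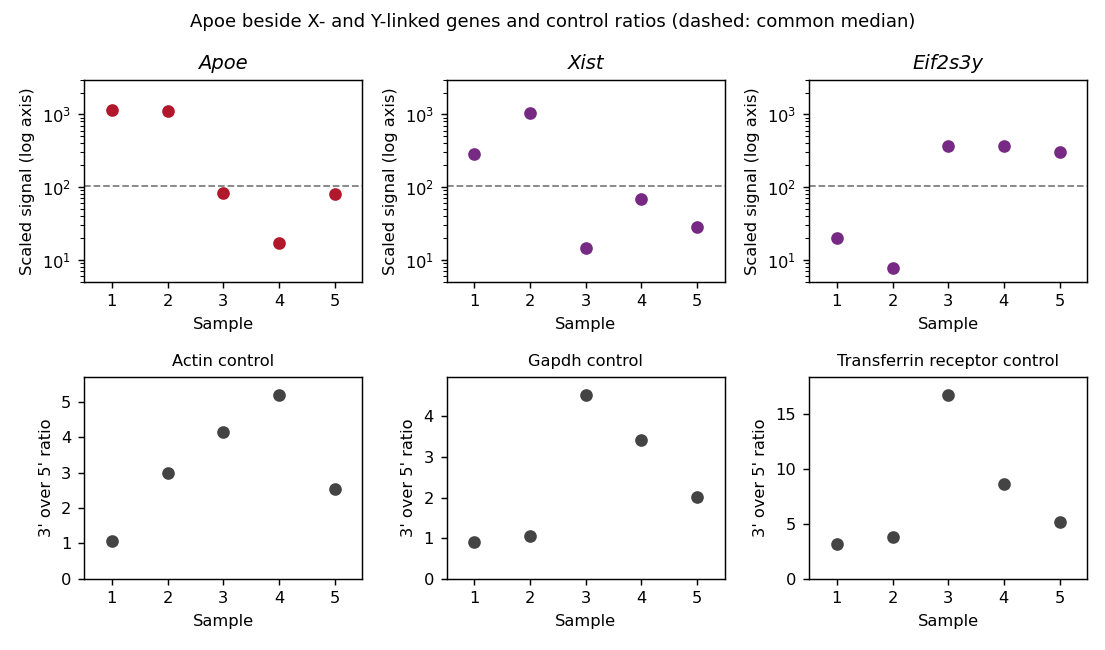
Top, scaled signal (log axis) of Apoe, Xist and Eif2s3y in samples 1 to 5, with the common median dashed; bottom, ratio of 3′ to 5′ signal of 3 control transcripts on the same arrays. Samples 1 and 2 have the highest Apoe and Xist, Eif2s3y at 19.9 and 7.68 and the lowest Gapdh and transferrin receptor ratios.

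Other genes of macrophages and of Apoe's pathway gave a mixed picture. Beside each count of followers that comes next stand the 10.2% of all other named genes that followed Apoe, or 6.81% with values raised to the floor and ties not counted. In the macrophage identity list, 5 of 15 genes followed: C1qa, Fcgr1, Lgals3, Itgam and Marco, the last with all values under the floor; 4 did with floored values. Fcgr1, the high-affinity IgG receptor gene of macrophages, had 173, 119.8, 67.9, 15.1 and 21.6 and matched Apoe in 10 of 10 pairs. Samples 1 and 2 were above the limit as for Apoe. Samples 4 and 5 were under the floor, so their order rests on values under it. Lgals3, which encodes galectin-3, had 3296, 4178, 2369.6, 2152 and 3054, all far above the limit. Itgam had 789, 546, 223, 343 and 486.

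Among lipid handling genes, 2 of 17 followed Apoe, near the 10.2% of all named genes, and 1 did with floored values. Apoc1, which lies beside Apoe in the genome and encodes a small apolipoprotein, had 136, 86.6, 10.1, 11.8 and 74.8. It matched Apoe in 8 of 10 pairs, with samples 3 and 4 under the floor. Pltp, a phospholipid transfer protein gene, was above the limit in 0 samples and under the floor in 4. Apoc2, which encodes the activator of lipoprotein lipase, had 201, 32.1, 184, 84.1 and 59.2 and matched in 6. The cholesterol exporter gene Abca1 had 19.4, 63.3, 21.2, 159 and 42.4, highest where Apoe was lowest, and matched in 2, with samples 1 and 3 under the floor.

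C1qa was the 1 of 12 complement genes and Marco the 1 of 9 scavenger receptor and lectin genes to follow, Marco on values under the floor. None of 10 macrophage transcription factors did (0 of 10). Of these, Spic, the factor of iron-recycling macrophages, had 12.8 in sample 1 against 156 to 169.8 in the others. Nr1h3, the oxysterol receptor gene that acts on Apoe, had 130.1, 154, 76.8, 78.5 and 71.0, above the limit in samples 1 and 2, and matched in 7 pairs. Of iron and erythroblastic island genes 2 of 7 followed, the transferrin receptor gene Tfrc and Siglec1, the latter with 4 of 5 values under the floor. Of lysosomal genes 2 of 13 followed, Hexa and Cd63, and another 2 of the 13 matched Apoe in at most 2 pairs. The share of all named genes that followed was 10.2%. Hmox1, the haem-degrading enzyme gene, had 750.0, 922, 630.4, 1096 and 653, above the limit throughout.

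Lists of other cells that marrow samples can hold were counted in the same way, against the same 10.2%. Apoe was followed by 3 of 8 osteoclast genes (Itgb3, Tnfrsf11a and Clcn7), 2 of 10 osteoblast and stroma genes (Col1a2 and Cxcl12), 1 of 8 erythroid genes (Klf1), 1 of 12 dendritic cell genes (Irf4, under the floor throughout) and 1 of 7 gate and progenitor genes (Itgam). Itgb3 had 3 values under the floor, Cxcl12 had 2 and Tnfrsf11a had 1. With floored values the counts were 2 of 8 for osteoclast, 1 of 10 for osteoblast and stroma and 0 of 12 for dendritic cell genes. Apoe was followed by 0 of 9 monocyte, 0 of 11 neutrophil granule and 0 of 9 B cell genes. At most 2 pairs matched in 2 of 8 osteoclast genes (Acp5 and Mmp9) and in 5 of 11 neutrophil granule genes. The same held for 1 of 9 monocyte, 1 of 8 erythroid and 1 of 9 B cell genes. It held for 0 of 10 osteoblast and stroma, 0 of 12 dendritic cell and 0 of 7 gate and progenitor genes. Of the other 8250 named genes, 822 had at most 2. The median number of matching pairs was 4 for monocyte and 3 for neutrophil genes, against 5 for all named genes. The summed neutrophil signal ran from 82409.7 in sample 1 to 276014 in sample 4, a range carried by bright genes such as S100a8, S100a9 and Ngp. The primary granule genes Elane, Prtn3 and Ctsg were instead highest in sample 1, at 10647, 6429 and 8592. Mpo, also a primary granule gene, was highest in sample 4 at 8138, with 7306 in sample 1. The summed monocyte signal ran from 11920.0 in sample 1 to 28105 in sample 4. Much of it was Lyz2, a bright gene with 5731 in sample 1 and 16251 in sample 4. Of the first 4 genes of that list, Ccr2 and Ms4a6c were lowest in sample 1, but Vcan and Fn1 in sample 5. Sample 4 had the lowest Apoe signal; the part of these cells in it was not tested.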

How the data were processed

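Total RNA of 5 samples was measured on single-colour probe-set arrays. The authors deposited an intensity per probe set on a linear scale, 12488 per array with a minimum of 0.1; its computation and scaling are not given in the sources used here. After removal of 66 control probe sets, 1 factor per array brought all medians to the common median. In the platform annotation, 10833 of the 12422 probe sets carried a single symbol, 396 carried several and stayed unnamed, and 1193 had no entry. Where a gene had more than 1 probe set, as 5 members did, that of highest mean log2 signal was used. The 25th percentile served as a floor for log2 values, while pairs of samples were ordered on unfloored values.

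The members and the 15 gene lists, with 179 genes of which 144 were measured, were chosen with earlier results of these data known. Named genes were the members, the 10 nearest to Apoe, the first 4 measured genes of each list and list genes following Apoe. Eif2s3y, Uty, Kdm5d, Mpeg1, S100a8, S100a9, Ngp and Lyz2 were chosen after values were seen. Alternatives were deposited values, quantile normalization, other limits, floors and pair shares, each probe set by itself and each sample left out. The pair count and distance were tested on simulated data. Python 3.11.15, numpy 2.4.6 and pandas 2.3.3 were used.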

Additional observations from a re-analysis of the deposited data

Results flagged for a closer look

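Among 63 named genes with at most 1 value under the floor, 4 had 1 sample far from the other 4, measured as its gap to the nearest sample over the whole range of log2 signal, with 0.71 as the critical value at 95%. Chance alone gives about 1 gene in 20, and the genes are not independent. Spic, a transcription factor gene of iron-recycling macrophages, had a gap of 0.952, with 12.8 in sample 1 and 158, 161, 156 and 169.8 in samples 2 to 5. C1ra, a complement protease gene, had a gap of 0.783, with 239.8 in sample 5 and 85.1 to 107 in the others. Fn1, fibronectin, had a gap of 0.750, with 2603 in sample 4 and 970.2 to 1242 in the others. Gata1, an erythroid factor gene, had a gap of 0.729, with 12.3 in sample 5 and 83.4 to 122 in the others. For Spic and Gata1 the outlying value was under the floor and was raised to it before the gap was taken. Of the macrophage genes of the set, 0 of 8 had such a sample. No share of all named genes stands beside these counts. At about 1 gene in 20 by chance, 0 of 8 says nothing particular of the set.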

How the results depend on the processing

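The number of macrophage genes above the limit in all samples was 6 of 8 under deposited values, quantile normalization, a limit at the 40th percentile, 3 samples sufficing and with any 1 sample left out, 6 of 13 with each probe set counted, and 2 for a limit at percentile 75. In turn, the number following Apoe was 1 of 7 and became 5 in deposited values, where 36.1% of named genes followed, 2 with quantile normalization (10.5%), 2 at 70% of pairs (22.2%) and 0 at 90% (2.97%). It stayed at 1 with the filter on low values, with floored values and with each of 12 probe sets counted, and ran from 1 to 5 with a sample left out. The number with an SD over 1 was 1 of 8, namely Apoe, which was chosen for its spread, whichever sample was left out. It was also 1 with no floor, where the share of named genes was 29.7% against 8.87%, and with a floor at the 10th percentile (24.4%), and 7 in deposited values, where the offset of sample 1 remained and 60.4% of named genes passed. Of 64 single-gene SDs under alternatives, 8 moved by over 1.5 times, 6 of them in deposited values. No paired analysis was possible because the labels give 1 group.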
